A study of Mus musculus with 6 samples.

Results

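The nuclear genes of the mitochondrial respiratory chain were read in mouse memory B cells labelled as having or lacking the mitophagy receptors Nix and Bnip3. The gene set comprised every symbol in the count table that begins with Nduf, Sdha to Sdhd, Uqcr, Cox followed by a digit, or Atp5, together with Cyc1 and Cycs. The rule used names and no measured value, and it found 109 of the 35186 symbols. They comprise 44 symbols of complex I, 6 of complex II, 9 of complex III, cytochrome c, 29 of complex IV, 16 of complex V and 4 pseudogenes, and by class 83 subunits and 21 assembly or other factors. The samples were splenic memory B cells of C57BL/6J mice, sorted for binding the hapten NP, from animals labelled wild type (WT, 3 libraries) and from animals labelled Nix-/-Bnip3-/- (DKO, 3 libraries), with RNA of about 1000 cells per library. Age and sex of the animals, how the alleles were made, and whether separate animals gave the libraries within a group are not given in the labels, so p-values measure only how these samples vary, and that variation may be technical.

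The respiratory chain passes electrons from NADH (complex I) or succinate (complex II) through ubiquinone to complex III, then through cytochrome c to complex IV, which reduces oxygen. Complexes I, III and IV pump protons across the inner mitochondrial membrane, and complex V, the ATP synthase, uses the resulting gradient to make ATP. Complex II is encoded entirely in the nucleus, whereas the other complexes combine nuclear subunits with a few made inside mitochondria, and assembly factors help to build each complex without being part of it. Nix, encoded by Bnip3l, and Bnip3 are outer membrane receptors that mark mitochondria for removal by autophagy.

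Depth was low, at 312908 to 517057 counts per library. Bnip3l was counted at 1, 8 and 0 in WT libraries 1, 2 and 3 and at 10, 16 and 41 in the libraries labelled DKO, which goes against the labels in its direction. Bnip3 was counted at 25, 62 and 6 against 2, 24 and 11, and both genes had groups that overlapped, so directions below are between libraries as labelled, and DKO libraries means those labelled DKO. The 8 B cell markers listed for the label check were all counted, at 194 to 376 normalized CPM in sum across WT libraries and 256 to 323 across DKO libraries, but the receptor component Cd79a had only 3, 0 and 0 counts across WT libraries, against 0, 2 and 4 across DKO libraries. The 5 memory B cell markers (Cd80, Nt5e, Pdcd1lg2, Cd38 and Zbtb32) were also counted. Their sums overlapped, at 104, 27.0 and 126 normalized CPM across WT libraries, against 142.5, 53.4 and 107 across DKO libraries. The 5 myeloid markers in the table (Lyz2, Itgam, Csf1r, S100a8 and S100a9) together had 26.1, 200.9 and 257 normalized CPM across WT libraries, against 362, 534 and 742 across DKO libraries, so that these sums did not overlap. Lyz2 (4, 0 and 10 counts against 35, 92 and 206) and Itgam (1, 9 and 21 against 81, 181 and 147) carried the myeloid sum, whereas Csf1r (0, 43 and 5 against 15, 10 and 27), S100a8 and S100a9 overlapped. The sum of the 6 T cell markers was lower in DKO libraries, at 162, 305 and 236 against 115, 138 and 98.8, with 64 counts of Cd4 in WT library 2 and 33 of Cd3d in WT library 3. Cd3e lay opposite to that sum, at 4, 5 and 1 counts against 16, 20 and 11, while plasma cell (94.0 to 189 against 54.2 to 326) and erythroid markers (5.25 to 58.0 against 0 to 20.4) overlapped. In such bulk samples fewer cells of a type and less RNA per cell cannot be told apart. Normalized CPM are counts relative to library size (CPM) after scaling by TMM, a method that equalizes the bulk of genes between libraries. Scaling mattered here, since the median log2 fold change of all genes tested was -0.17 with TMM and 0.62 if only library totals were used.

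The respiratory chain genes were sparsely counted in every library. Together they took 541, 753 and 358 counts in WT libraries 1, 2 and 3, compared with 1088, 1331 and 1447 in DKO libraries 1, 2 and 3. This was 0.173% (95% exact binomial interval 0.159% to 0.188%), 0.150% (0.140% to 0.162%) and 0.112% (0.101% to 0.124%) of all counts against 0.245% (0.230% to 0.260%), 0.257% (0.244% to 0.272%) and 0.281% (0.267% to 0.296%), intervals that cover counting error only. By library totals each library labelled DKO therefore lay above each WT library, at 1.80 times in the mean. After TMM scaling the sums overlapped, at 2538 ± 572 normalized CPM in WT and 2571 ± 200.4 in DKO libraries (SD, n = 3), a ratio of 1.01.

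More members were seen at all in the libraries labelled DKO. Of the 109 symbols 52, 51 and 58 had at least 1 count in WT libraries 1, 2 and 3, against 81, 78 and 80 in DKO libraries 1, 2 and 3. The same held for the whole table, where 50.7% to 52.5% of symbols had a count across WT libraries, against 67.0% to 70.4% across DKO libraries. Once every library was thinned to the total of the shallowest one, an alternative chosen after seeing the data, the expected shares were 42.1% to 52.9% of members across WT libraries, against 66.8% to 69.9% across DKO libraries, beside 47.7% to 52.3% and 63.1% to 65.1% of all symbols. After thinning, both the members and all symbols were still seen more often in each DKO library than in any WT library.

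**Figure D1:**
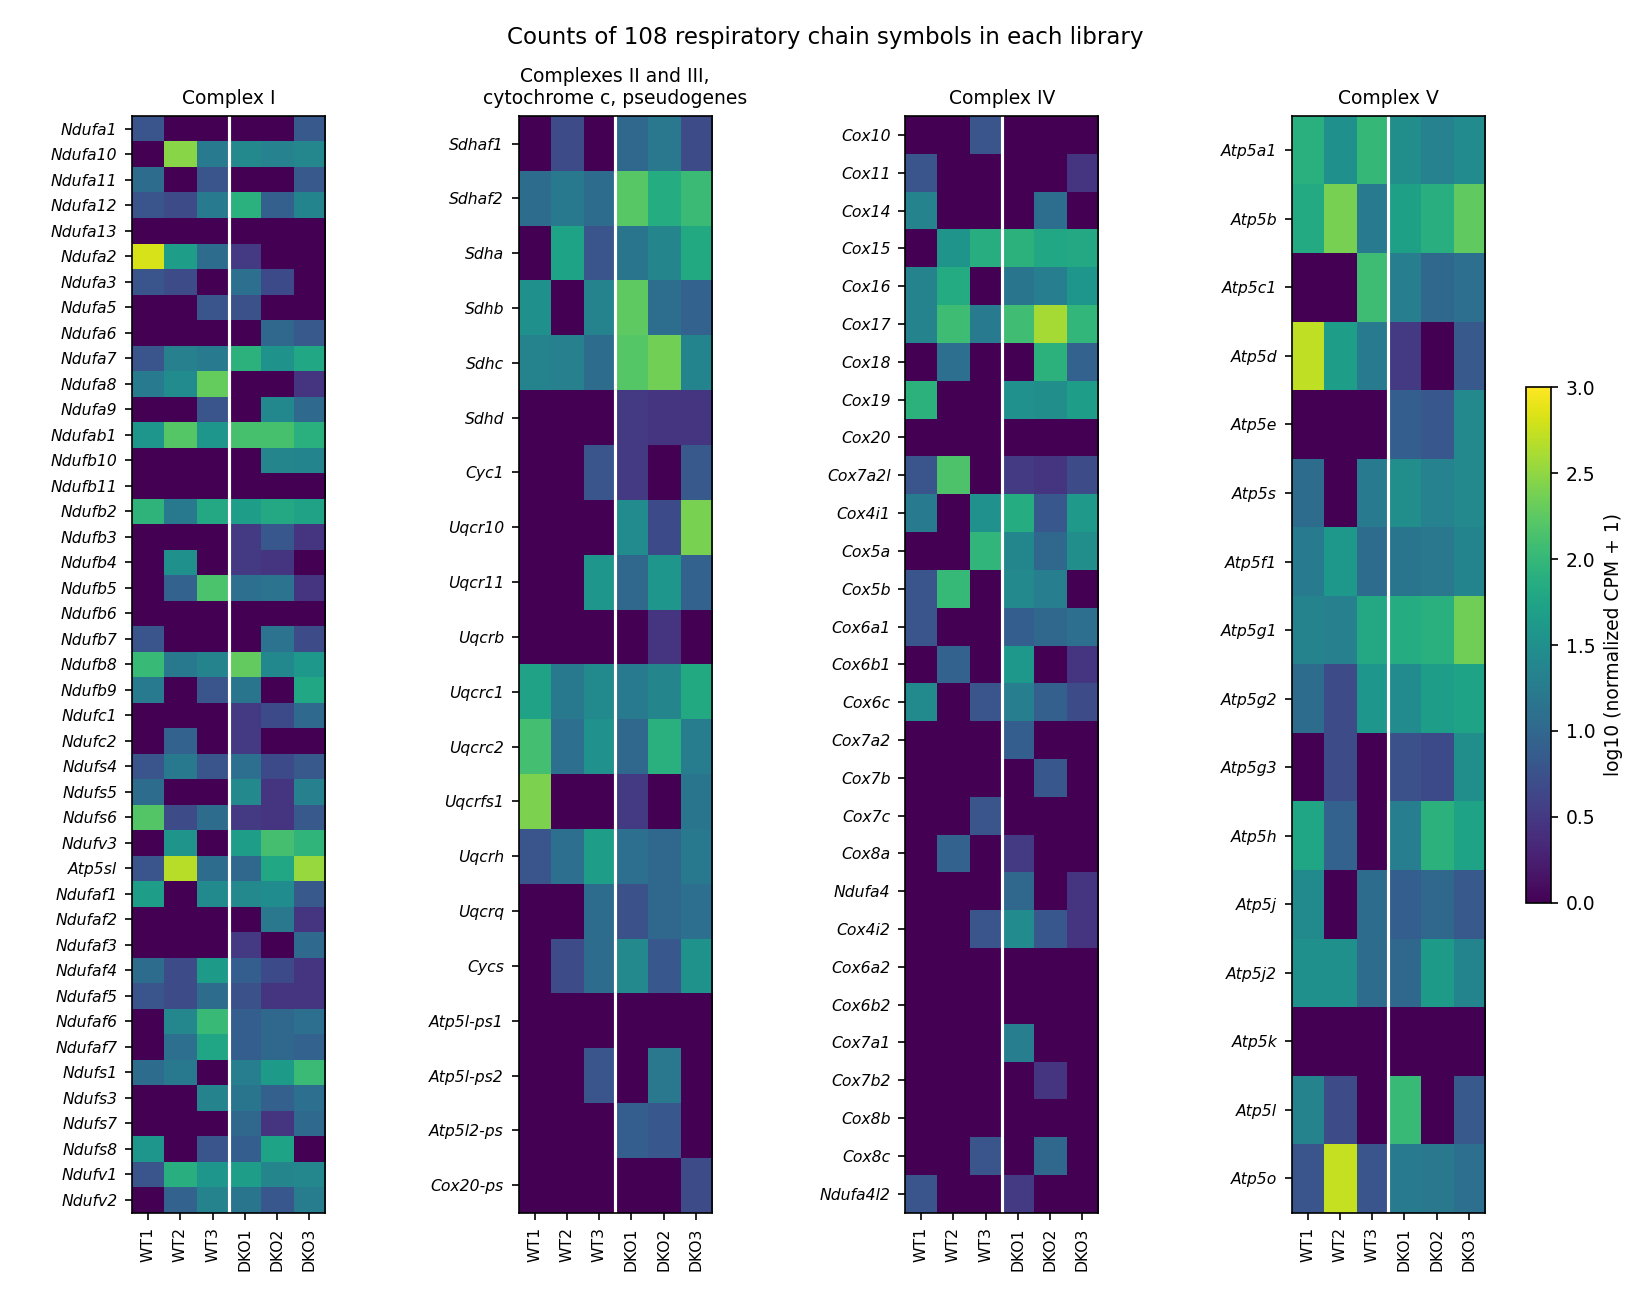
Each row is 1 of 108 respiratory chain symbols and each column 1 library; colour gives log10 of normalized CPM plus 1, and the white line separates the 3 WT libraries from the 3 labelled DKO. Dark cells are libraries with no counts, and most rows are bright in some libraries of a group and dark in others.

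In these libraries 9 members had 0 counts in all 6, which allows up to 1.15 CPM of the pooled total. They were the complex I accessory subunits Ndufb11, Ndufb6 and Ndufa13, the ATP synthase subunit Atp5k, the complex IV assembly factor Cox20, the isoforms Cox6a2, Cox6b2 and Cox8b, and the pseudogene Atp5l-ps1. Only 24 members had a count in every library, and no member reached 10 counts in each of them. Of the 72 members with at least 10 counts in total, 35 (48.6%) had over 50% of their summed normalized CPM in 1 library, beside 46.8% of the 22476 symbols of that depth in the table. Counts were larger for genes with a longer annotated exonic length (Spearman correlation 0.61 over 106 members, which share the same 6 libraries; 0.60 over 20481 protein-coding genes), and members were shorter than protein-coding genes at large (median 1697 against 3556 exonic bases). Levels were therefore compared between genes per kilobase of exon, and the highest means over the 6 libraries were those of Ndufa2 (209 normalized CPM per kilobase), Uqcr10 (80.1), Atp5d (50.8) and Ndufa8 (46.3). Each of these had 81.3% to 91.8% of its normalized CPM in a single library, so this order describes single libraries. Among members with counts, 34 of 97 shared exonic bases with another annotated gene, as did 5 of the 9 without, led by Cox20 with 91.1% of its exonic bases; whether counting used strand is not given in the sources used here.

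Of the 8895 genes with enough counts to be tested, 24 were respiratory chain genes (22.0% of the members, beside 25.3% of all symbols). In 17 of the 24 the minimum was met by all 3 libraries labelled DKO and by fewer than 3 WT libraries, and in 0 the reverse, so most tested members passed through the DKO libraries. By edgeR's quasi-likelihood test none of the 24 passed at an adjusted p of 0.05, where 0% of all genes tested passed. Their adjusted p ranged from 0.390 to 0.996. On simulated counts with the spread of these data the test recovered 0 of 66 genes changed by 6 on the log2 scale. No absence of change is therefore read from this. At an unadjusted p under 0.05 stood 2 members, Sdhaf2 and Sdhc, both higher in the libraries labelled DKO, where 5.49% of all genes tested were called higher and 6.59% lower by that rule. DESeq2 called 1 member, Sdhaf2 (higher; background 2.57% higher and 4.51% lower). Without any filter on low counts edgeR called 2, Uqcr10 higher (background 0.0707%) and Ndufa2 lower (background 0.347%).

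Groups that did not overlap were found for 15 of the 109 members with DKO libraries higher (13.8%, beside 8.43% of all symbols) and for 4 with DKO libraries lower (3.67%, beside 3.52%). Among the 72 members with at least 10 counts these numbers were 12 and 4, or 16.7% and 5.56%, beside 11.4% and 5.21% of all symbols of that depth. In both sets the share of members with DKO libraries higher was above the background by a few members, and the share with DKO libraries lower was near it. Among the 24 tested the numbers were 6 and 1, or 25.0% and 4.17%, beside 12.8% and 6.39% of all genes tested, but 5 of those 6 met the filter in 0 WT libraries, so nothing is read from this share.

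**Figure D2:**
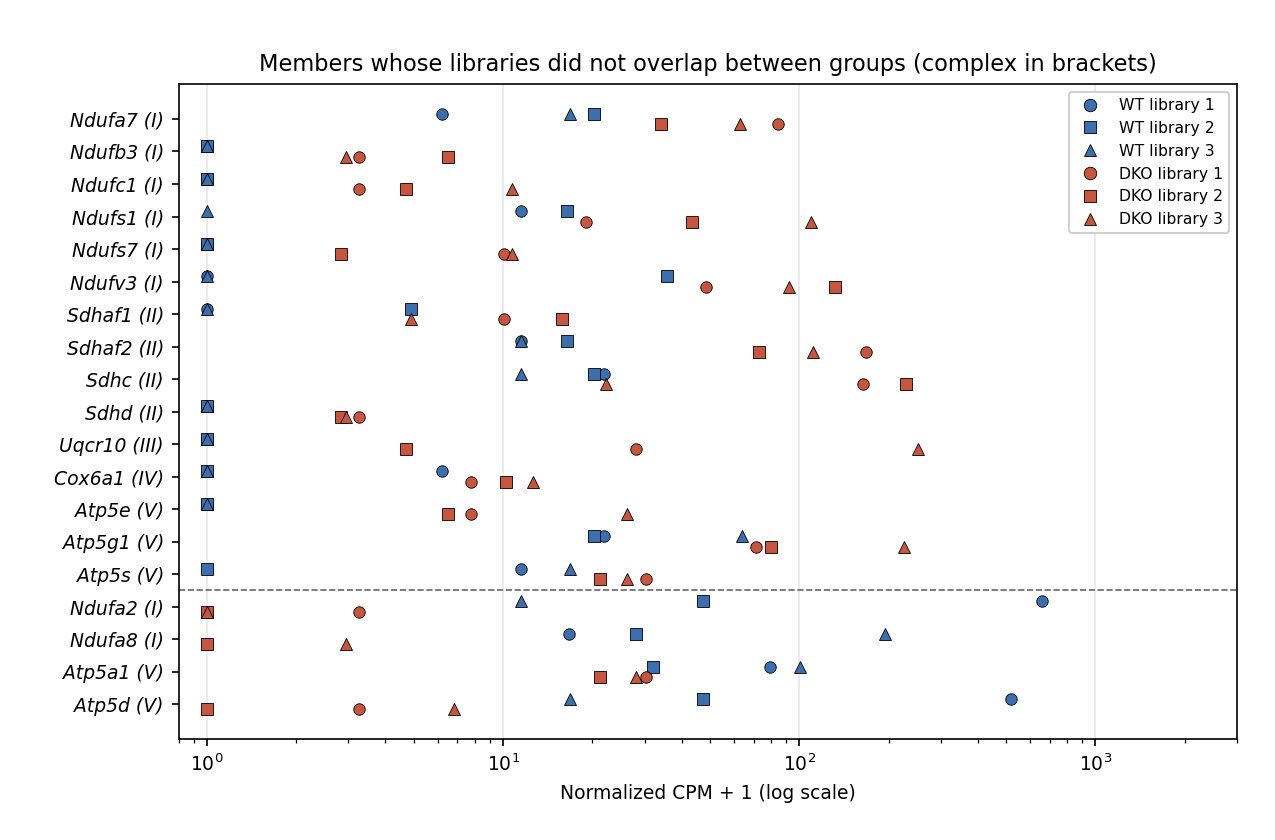
Normalized CPM plus 1 (log scale) of the 19 members whose libraries did not overlap between groups; each symbol is 1 library, blue for WT and red for libraries labelled DKO. Above the dashed line are the 15 members with DKO libraries higher, below it the 4 with DKO libraries lower. Several are separated only narrowly, among them Sdhc, Sdhaf1 and Atp5a1 (30.9 in WT library 2 against 29.4 in DKO library 1).

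Complex II, succinate dehydrogenase, had the largest ratio of summed levels among the complexes. It feeds electrons from the citric acid cycle into the chain through a flavoprotein (Sdha), an iron-sulfur protein (Sdhb) and a pair of membrane anchors (Sdhc and Sdhd). The 6 members together gave 12, 24 and 9 counts for WT, compared with 236, 190 and 109 for DKO libraries. In normalized CPM these sums were 62.7, 92.7 and 47.3 against 534, 350 and 211, so every library labelled DKO lay above every WT library. The ratio of means was 5.40, and 4.15 to 6.64 with any 1 library left out; by library totals it was 9.70. Without Sdhc, the member with the highest mean, the sums were 41.8, 73.4 and 36.8 against 371, 121 and 190 and still did not overlap. With Sdhc and Sdhaf2 both left out they overlapped (31.3, 58.0 and 26.3 against 204, 49.7 and 79.4, ratio 2.88), although not by library totals, where the ratio was 5.16.

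Sdhaf2 (chromosome 19, 10500534 to 10526142, mm10), which attaches the flavin cofactor to Sdha, was counted at 2, 4 and 2 across WT libraries, against 74, 39 and 57 across DKO libraries. All 3 WT libraries were low and all 3 labelled DKO were high, at 12.1 ± 2.88 against 117 ± 48.1 normalized CPM (SD, n = 3). The fitted log2 fold change (DKO over WT) came to 3.21 (SE 1.00, edgeR adjusted p = 0.390), the largest among the tested members, and with 1 library left out it stayed between 3.00 and 3.56. DESeq2 gave 3.11 with an adjusted p of 0.0227. Sdhaf2 met the filter on low counts in 0 WT and 3 DKO libraries, as did Sdhc, so both entered the tests only through the group where they were high. Sdhc (chromosome 1, 171127165 to 171150603) had 4, 5 and 2 counts against 72, 124 and 11. DKO libraries 1 and 2 were high, while DKO library 3, at 21.3 normalized CPM, lay just above WT library 1 at 20.9. Its fitted log2 value was 2.99 (SE 1.12, edgeR adjusted p = 0.390), or 3.60 without DKO library 3. Sdhaf1, which protects the iron-sulfur clusters of Sdhb, had 0, 1 and 0 against 4, 8 and 2 counts, and Sdhd had 0 in each WT library and 1 in each labelled DKO, both too few to be tested. Sdhb was counted at 6, 0 and 4 against 79, 6 and 4, where DKO library 1 alone was high. Sdha had 0, 14 and 1 against 6, 12 and 34 counts, with groups that overlapped (log2 fold change 0.71, SE 1.24, or 3.57 without WT library 2). The summed myeloid markers, through Lyz2 and Itgam but not Csf1r or S100a9, were likewise higher in each library labelled DKO, and the summed T cell markers, although not Cd3e, were lower; their part in the complex II values was not tested.

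**Figure D3:**
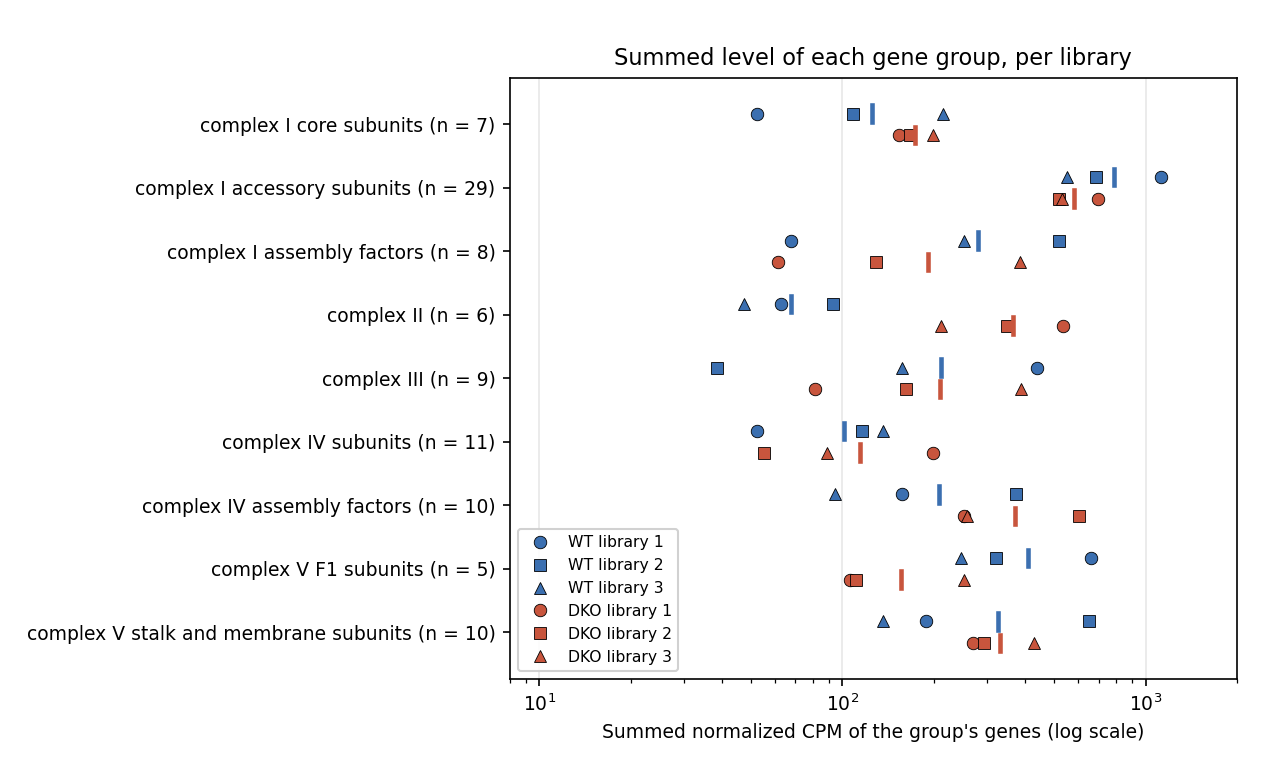
Summed normalized CPM (log scale) of the genes in each group; each symbol is 1 library, blue for WT and red for libraries labelled DKO, and the short bars are group means. In complex II the 3 libraries labelled DKO (211 to 534) lie apart from the 3 WT libraries (47.3 to 92.7), while in the other groups shown they overlap after TMM scaling.

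Promoters of complex II genes held motifs of the factors known for nuclear respiratory genes. NRF1 binds a GC-rich palindrome, GABP is an ETS family factor, and YY1 binds a short element often placed at transcription starts. RefSeq promoter windows on GRCm38.p6, from 250 bases before to 50 after the annotated start, were searched on both strands. The motifs were the NRF1 core (a GC-rich element with 1 free base, which need not be a palindrome), CCGGAAG (ETS) and AAGATGGC (YY1). All 5 complex II members with a window held at least 1 NRF1 or ETS match, and they are shown because this complex differed most between the groups. Each line gives 30 bases on the gene's strand, 5′ to 3′, with the match in capitals, either the motif as searched or its reverse complement.
Sdha, NRF1 core, chr13:74350231-74350260, minus strand, match beginning 10 bases before the start: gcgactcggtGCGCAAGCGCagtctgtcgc
Sdhd, NRF1 core, chr9:50603909-50603938, minus strand, 79 bases before the start: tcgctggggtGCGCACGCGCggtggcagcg
Sdhd, ETS, chr9:50603877-50603906, minus strand, 46 bases before the start: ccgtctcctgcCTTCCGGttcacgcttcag
Sdhb, ETS, chr4:140961266-140961295, plus strand, 6 bases after the start: gctcggagaaaCCGGAAGcggccttccact
Sdhaf1, ETS, chr7:30322350-30322379, minus strand, 7 bases after the start: tcggggcggtcCTTCCGGccagtgtggggc
Sdhaf2, ETS, chr19:10525175-10525204, minus strand, 16 bases after the start: ctcggttgcgcCTTCCGGcttggggtccac
Sdha held a further NRF1 match 55 and another 98 bases before its start, and Sdhaf2 a further ETS match 158 bases before its own.

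Across the whole set, 83 members had a promoter window, of which 46 (55.4%) held at least 1 of the motifs, beside 21.03% of 17491 protein-coding genes and 16.4% of all 27025 genes with windows of that length. The NRF1 core was in 19 members (22.9%, beside 7.17% of protein-coding genes), the ETS motif in 24 (28.9%, beside 12.9%) and the YY1 motif in 11 (13.3%, beside 3.57%). The motifs were spread unevenly over the complexes. The NRF1 core was in 6 of 13 complex V windows and 1 of 21 complex IV windows, whereas the ETS motif was in 8 of 21 for complex IV and 5 of 38 for complex I, and 7 of the 11 members with the YY1 motif belonged to complex I. Of the 37 members with no match, 5 had DKO libraries higher and 1 lower without overlap. These numbers were 2 and 1 of 19 with the NRF1 core, 5 and 0 of 24 with the ETS motif, and 2 and 0 of 11 with the YY1 motif, beside the 8.43% higher and 3.52% lower of all symbols, and on such small numbers no motif is set apart.
Cox6a1, NRF1 core (the nearer of 2), chr5:115349056-115349085, minus strand, 117 bases before the start: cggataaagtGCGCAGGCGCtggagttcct
Ndufa8, NRF1 core, chr2:36049349-36049378, minus strand, 30 bases before the start: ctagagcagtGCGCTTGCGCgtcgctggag
Ndufs7, YY1, chr10:80249462-80249491, plus strand, 24 bases after the start: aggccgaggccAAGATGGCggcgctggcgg
Ndufc1, YY1, chr3:51408915-51408944, minus strand, 22 bases after the start: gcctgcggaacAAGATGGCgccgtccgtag
These are examples from members outside complex II whose groups did not overlap. Cox6a1, Ndufs7 and Ndufc1 were higher in the libraries labelled DKO and Ndufa8 lower, so the NRF1 core stood in promoters of genes that lay in opposite directions.

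Complex I, the NADH dehydrogenase, gave values in both directions. Its 44 members summed to 1248, 1310 and 1019 normalized CPM across WT libraries, against 912, 814 and 1114 across DKO libraries, with groups that overlapped. The 7 core subunits, which carry the flavin and iron-sulfur clusters, had 10, 28 and 41 counts against 68, 91 and 103, or 125 ± 82.9 against 174 ± 23.4 normalized CPM (SD, n = 3). Ndufs1, the largest iron-sulfur subunit, was counted at 2, 4 and 0 across WT libraries, against 8, 23 and 56 across DKO libraries, and Ndufs7, next to the ubiquinone site, at 0 in each WT library against 4, 1 and 5. In both, each library labelled DKO lay above each WT library. Ndufv1, which binds NADH, overlapped at 1, 20 and 7 against 21, 12 and 12 counts (log2 fold change -0.38, SE 1.03), or 0.59 without WT library 2. Ndufs8 was at 7, 0 and 1 against 3, 29 and 0 counts.

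The 29 accessory subunits surround the core of complex I and stabilize it. Ndufv3 was counted at 0, 9 and 0 across WT libraries, against 21, 71 and 47 across DKO libraries, or 11.6 ± 20.1 against 89.7 ± 41.6 normalized CPM (SD, n = 3). Ndufa7 had 1, 5 and 3 against 37, 18 and 32 counts, or 13.4 ± 7.33 against 59.6 ± 25.4 normalized CPM. In neither gene did the groups overlap. Log2 fold changes were 2.83 (SE 1.33) and 2.10 (SE 0.99), each with an edgeR adjusted p of 0.419. Both met the filter on low counts in 0 WT and 3 DKO libraries. They thus entered the tests only through the group where they were high. Without WT library 2 the value of Ndufv3 was 8.10, while Ndufa7 stayed between 1.81 and 2.51. Ndufb3 (0 in each WT library against 1, 3 and 1) and Ndufc1 (0 in each against 1, 2 and 5) lay the same way on very few counts. Ndufa2 lay the other way, with 126, 12 and 2 counts against 1, 0 and 0, and Ndufa8 had 3, 7 and 37 against 0, 0 and 1. Most of the signal of Ndufa2 was in WT library 1 and most of that of Ndufa8 in WT library 3, and both failed the filter on low counts. Ndufs6 similarly had 30 of its 38 counts in WT library 1. Ndufa10 was at 0, 75 and 3 against 11, 11 and 12 counts, and its log2 fold change went from -2.16 (SE 1.41) to 1.53 without WT library 2. Ndufab1, the mitochondrial acyl carrier protein, was the only member past the filter's minimum of 21.2 CPM in all 6 libraries, with 7, 42 and 7 counts against 59, 73 and 41, or 78.5 ± 72.5 against 116 ± 31.5 normalized CPM.

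The 8 assembly factors of complex I overlapped between the groups. Ndufaf1, which helps to build the membrane arm, had 9, 0 and 5 counts across WT libraries, against 11, 15 and 3 across DKO libraries (log2 fold change -0.29, SE 1.21, or 0.69 without WT library 1). Atp5sl, also called Dmac2, is named after the ATP synthase but is known as a factor of the distal membrane arm of complex I. Its counts were 1, 123 and 2 against 4, 34 and 178, and leaving out DKO library 3 or WT library 2 moved its log2 fold change from -0.24 (SE 1.56) to -2.09 or 4.13. Ndufaf6 had 0, 6 and 20 against 3, 5 and 6 counts, and Ndufaf7, a protein methyltransferase, 0, 3 and 11 against 3, 5 and 4.

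Complex III, which passes electrons from ubiquinol to cytochrome c, overlapped between the groups. Its 9 subunits summed to 439, 38.6 and 158 normalized CPM across WT libraries, against 81.4, 162 and 387 across DKO libraries. Uqcr10, a small subunit, was at 0 counts in all WT libraries, against 12, 2 and 129 across DKO libraries, so that DKO library 3 held most of them. Taking 3 counts summed over the WT libraries as its floor, the ratio of means was 20.0, or 3.29 without DKO library 3. That floor covers counting error only and not the spread between libraries, so these ratios are not lower bounds. In edgeR without a filter its adjusted p was 0.0449. Uqcrfs1, the Rieske iron-sulfur protein, had 49, 0 and 0 counts against 1, 0 and 7, with WT library 1 alone high. The core protein gene Uqcrc1, the only complex III member tested, overlapped at 10, 4 and 5 against 7, 12 and 34 counts (log2 fold change 0.16, SE 0.98), or -0.59 without DKO library 3 and 0.81 without WT library 1. Uqcr11 had 0, 0 and 7 against 4, 20 and 4 counts, and Cyc1, cytochrome c1, 0, 0 and 1 against 1, 0 and 3. Cycs, cytochrome c itself, had 0, 1 and 2 against 11, 3 and 17 counts, and DKO library 2 (5.52 normalized CPM) lay below WT library 3 (10.5).

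Complex IV, cytochrome c oxidase, had fewer counts over all libraries in its subunits than in its assembly factors, without regard to exonic length. Per kilobase of exon, the highest mean levels of common subunits were 17.6 (Cox4i1), 15.6 (Cox5b) and 12.3 (Cox5a) normalized CPM. Those of assembly factors were similar, at 22.1 (Cox17), 17.6 (Cox7a2l) and 10.8 (Cox15). The 11 common subunits summed to 10, 30 and 26 counts across WT libraries, against 88, 30 and 46 across DKO libraries, or 102 ± 44.0 against 114 ± 75.2 normalized CPM (SD, n = 3). Cox4i1, which sets the response of the complex to ATP, had 3, 0 and 6 against 31, 3 and 21 counts, Cox5b 1, 26 and 0 against 11, 10 and 0, and Cox5a 0, 0 and 18 against 10, 5 and 15. For Cox5a WT library 3 alone was high in its group, and the log2 fold change of -0.60 (SE 1.42) was 6.02 without it. Cox6a1 was the only complex IV member whose groups did not overlap, at 1, 0 and 0 against 3, 5 and 6 counts. Cox7a2, Cox7b, Cox7c and Cox8a had 1 to 3 counts in all libraries together.

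The 8 isoforms known mainly from muscle, lung, testis or hypoxia gave 34 counts in all, beside 113 for their 7 common counterparts. Cox4i2, the lung isoform, had 0, 0 and 1 counts across WT libraries, against 12, 3 and 1 across DKO libraries, and Cox7a1, a muscle isoform, had 8 counts, all in DKO library 1. Cox8c had 6, Ndufa4l2 2 and Cox7b2 1. The common isoform had more counts in 6 of 8 pairs; Cox7a1 exceeded Cox7a2 (8 against 3) and Cox8c exceeded Cox8a (6 against 3), on numbers too small to order. Per library, the common isoforms had 4, 4 and 6 counts in WT and 59, 11 and 29 in DKO libraries, and the restricted ones 1, 0 and 2 against 21, 9 and 1.

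The 10 assembly factors of complex IV, which deliver copper and heme and hold the mitochondrially made subunits, summed to 157, 375 and 94.5 normalized CPM against 251, 604 and 258. WT library 2 lay above DKO libraries 1 and 3, so the groups overlapped. Cox17, the copper chaperone, was counted at 4, 30 and 3 across WT libraries, against 53, 215 and 50 across DKO libraries. WT library 2 stood above the other WT libraries and, at 116 normalized CPM, within the range of DKO libraries 1 and 3; the fitted log2 value was 1.98 (SE 1.12, edgeR adjusted p = 0.469), 1.15 without DKO library 2 and 3.50 without WT library 2. Cox15, which makes heme A, had 0, 9 and 14 against 37, 34 and 33 counts (log2 fold change 0.95, SE 1.15), even in the libraries labelled DKO and uneven in WT. Once scaled, its groups overlapped, with WT library 3 at 73.5 normalized CPM and DKO library 2 at 62.6. Without WT library 3 its value was 2.01. Cox19, another copper factor, had 16, 0 and 0 against 14, 16 and 24, with a log2 fold change of 0.39 (SE 1.37) that became 6.84 without WT library 1. Cox7a2l, which joins complexes III and IV into supercomplexes, had 1, 37 and 0 against 1, 1 and 2 counts. Cox10 and Cox11, for heme and copper insertion, had 1 and 2 counts in all.

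Complex V, the ATP synthase, is described by its head and its stalk and membrane part, whose difference was not tested. The catalytic F1 head (Atp5a1, Atp5b, Atp5c1, Atp5d and Atp5e) summed to 663, 321 and 247 normalized CPM across WT libraries, against 106, 110 and 252 across DKO libraries. DKO library 3, just above WT library 3, made these groups overlap, and its high value was that of Atp5b. The ratio of means was 0.38, or 0.55 without WT library 1; by library totals it was 0.66, or 1.01 without WT library 1. Atp5a1, the alpha subunit, had 15, 8 and 19 against 13, 11 and 14 counts, or 69.7 ± 35.2 against 25.6 ± 4.77 normalized CPM (SD, n = 3). Once scaled, each library labelled DKO lay below each WT library, but its log2 fold change of -1.43 (SE 0.93, edgeR adjusted p = 0.520) was -0.69 with library totals alone. Atp5d, the delta subunit, had 99, 12 and 3 against 1, 0 and 3 counts, likewise without overlap and with most of its counts in WT library 1. The epsilon subunit gene Atp5e lay the other way, with 0 in each WT library against 3, 3 and 13. With the same floor the ratio of means was 2.67, or 1.31 without DKO library 3, again not a lower bound. The beta subunit gene Atp5b had 13, 63 and 3 against 22, 41 and 94 counts, and Atp5c1, the gamma subunit, 0, 0 and 22 against 8, 5 and 6.

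The stalk and membrane part of complex V (10 members) summed to 188, 653 and 137 against 269, 293 and 428 normalized CPM, with groups that overlapped. Atp5g1 encodes subunit c, the proton-carrying ring, whose mature protein is shared with Atp5g2 and Atp5g3. It had 4, 5 and 12 counts across WT libraries, against 31, 43 and 116 across DKO libraries, or 34.4 ± 24.8 against 125 ± 86.7 normalized CPM, without overlap. Its fitted log2 value was 1.86 (SE 1.01, edgeR adjusted p = 0.455), 1.24 without DKO library 3 and 2.69 without WT library 3. Atp5g2 had 2, 1 and 7 against 12, 25 and 28 counts, and Atp5g3 0, 1 and 0 against 2, 2 and 15. Once scaled, the groups overlapped for Atp5g2 (36.8 normalized CPM in WT library 3, 27.1 in DKO library 1). They also overlapped for Atp5g3 (3.86 in WT library 2, 3.68 in DKO library 2). Reads that fit more than 1 of the subunit c genes cannot be placed from this table. Atp5h, a stalk subunit, had 11, 2 and 0 against 8, 45 and 28 counts. Atp5o, the subunit that joins stalk and head, had 141 of its 164 counts in WT library 2. Atp5s, a coupling factor of the synthase, had 2, 0 and 3 against 13, 11 and 13 counts, or 8.73 ± 8.02 against 24.9 ± 4.58 normalized CPM, without overlap (log2 fold change 1.54, SE 1.14). Its value was 0.95 without WT library 2 and 2.37 without WT library 3. Atp5s met the filter in 0 WT and 3 DKO libraries, so it too entered the tests only through the group where it was high. The 4 pseudogene symbols had 17 counts together, 16 of them in libraries labelled DKO.

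Subunits and assembly factors were set side by side over the whole chain. The 83 subunits summed to 2022 ± 545 normalized CPM across WT libraries, against 1826 ± 212 across DKO libraries (SD, n = 3), a ratio of 0.90. The 21 assembly factors summed to 510.1 ± 354 against 713 ± 171, a ratio of 1.40. It was 1.11 without WT library 1 and 2.31 without WT library 2. Both ranges overlapped after TMM scaling; by library totals each library labelled DKO lay above each WT library in both classes, at ratios of 1.59 and 2.59. Among tested members the median log2 fold change was 0.55 over 17 subunits (10 above 0 and 7 below) and 0.95 over 7 assembly factors (5 above and 2 below), beside -0.17 over all 8895 genes tested, of which 45.5% lay above 0. By complex it was -0.14 for I (10 genes), 2.99 for II (3 genes), 0.16 for III (1 gene), 0.67 for IV (4 genes) and 1.30 for V (6 genes). Since most tested members passed the filter through the libraries labelled DKO, these medians describe the tested genes alone.

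**Figure D4:**
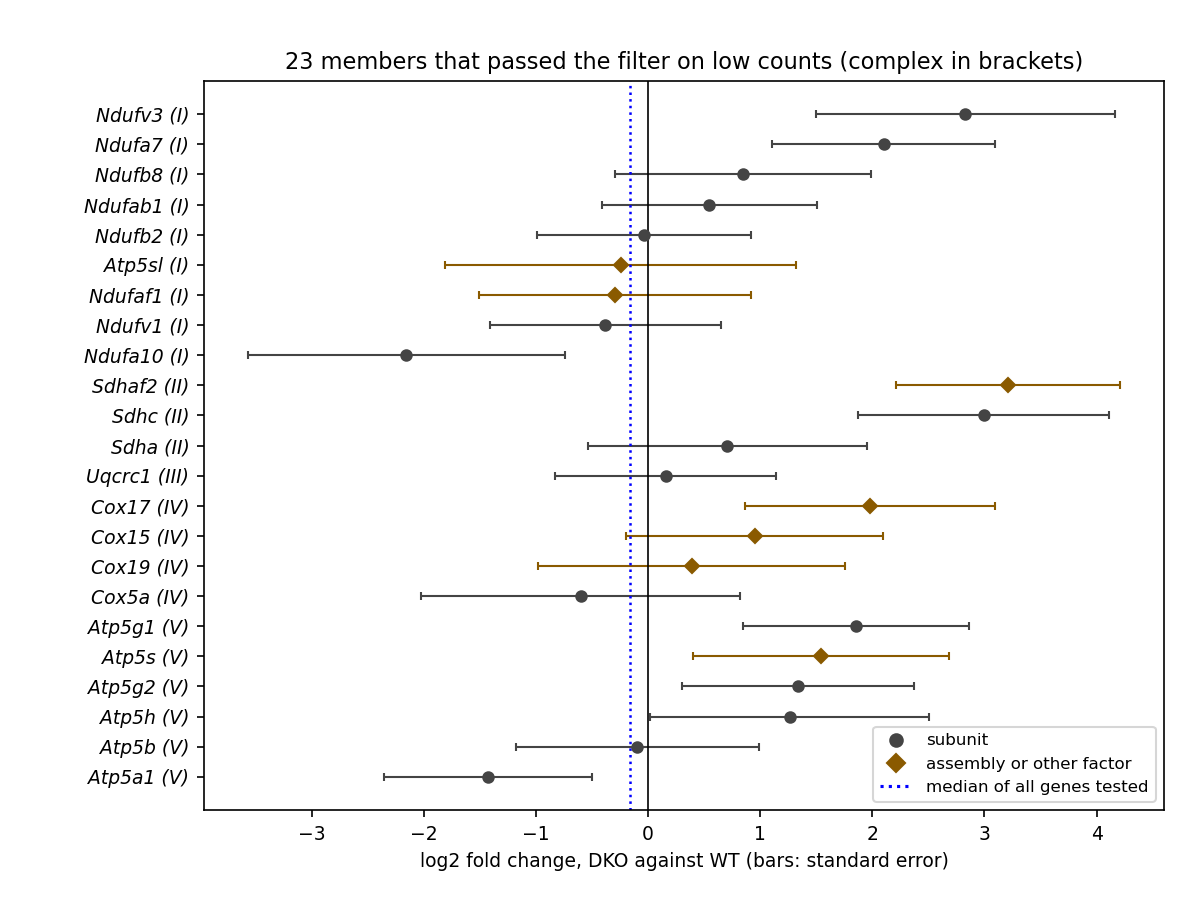
log2 fold change, DKO against WT, of 23 members that passed the filter on low counts, with bars for the standard error from edgeR; circles are subunits, diamonds assembly or other factors, and the dotted line is the median of all genes tested (-0.17). Values run from -2.16 (Ndufa10) to 3.21 (Sdhaf2), and standard errors from 0.93 to 1.56.

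Counts from the mitochondrial genome, which encodes 13 further respiratory chain proteins, were set against the nuclear members within each library, a ratio that needs no scaling between libraries. For each nuclear count there were 44.0, 41.4 and 17.3 mitochondrial-genome counts in WT libraries 1, 2 and 3, against 11.7, 5.84 and 3.55 in DKO libraries 1, 2 and 3. Each library labelled DKO thus lay below each WT library, and this held without mt-Co1, the most abundant of the 13 (28.9, 23.3 and 9.73 against 8.39, 3.99 and 2.42). Both parts of the ratio differed in raw counts, which are not adjusted for depth. The libraries labelled DKO had more nuclear counts each than any WT library. Their nuclear share was also higher by library totals, but after TMM scaling the nuclear sums overlapped, at a ratio of 1.01. Their mitochondrial-genome counts (12770, 7769 and 5138) lay below WT libraries 1 and 2 (23789 and 31183) but overlapped WT library 3 (6195).

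**Figure D5:**
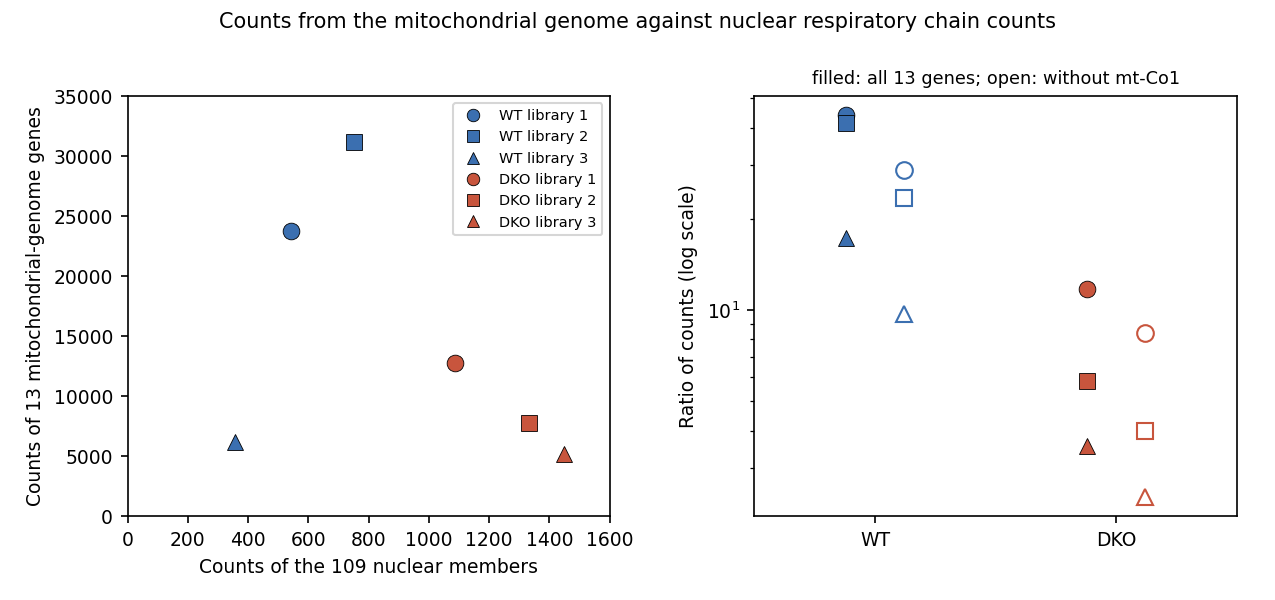
Left, counts of the 13 mitochondrial-genome protein genes against counts of the 109 nuclear members, 1 symbol per library. Right, their ratio (log scale), filled for all 13 genes and open without mt-Co1; the 3 WT libraries lie at 17.3 to 44.0 and the 3 labelled DKO at 3.55 to 11.7.

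Of 55 other genes listed for the pathway, 52 were in the table and 25 were tested, of which 14 lay above 0 and 11 below, with a median log2 fold change of 0.25. None passed the edgeR test, and 2 had an unadjusted p under 0.05, beside 5.49% of all genes tested higher and 6.59% lower by that rule. Ppargc1a, the coactivator PGC-1alpha that drives mitochondrial biogenesis, was counted at 46, 50 and 10 across WT libraries, against 5, 3 and 9 across DKO libraries (DESeq2 adjusted p = 0.00258). Yy1, whose motif was searched above, had 0, 0 and 1 against 15, 20 and 15 counts (log2 fold change 4.10, SE 1.33, edgeR adjusted p = 0.390, DESeq2 adjusted p = 0.0481). In both genes the groups did not overlap, as in 12.8% (DKO higher) and 6.39% (DKO lower) of all genes tested. DESeq2 called 2.57% of genes higher and 4.51% lower. Yy1 met the filter's minimum only in libraries labelled DKO, and Ppargc1a only in WT libraries. Both thus entered the tests only through the group where they were high, and nothing is read from their p-values. Nubpl, an iron-sulfur carrier for complex I, had 1, 7 and 2 against 14, 14 and 71 counts, and Coq9, of coenzyme Q synthesis, 0, 0 and 6 against 36, 34 and 14. Once scaled, the groups of Nubpl and of Coq9 overlapped. Among the regulators, Nrf1 itself had 12, 4 and 292 counts against 81, 58 and 37, and Gabpb1, a GABP subunit, 375, 9 and 6 against 43, 113 and 119, so that 1 WT library held most of the WT counts of each. Of the 30 assembly factors outside the name rule, 12 were tested (8 above 0 and 4 below, median 0.47), and Sco2 and Pet117 had 0 counts.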

How the data were processed

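Polyadenylated RNA of about 1000 sorted cells per library was amplified into cDNA libraries, per the labels' protocols. The deposited file is 1 table of raw counts by gene symbol for 6 libraries. CASAVA, STAR, edgeR, R 3.6.3 and mm10 appear without roles in the submitters' processing notes; the counting tool, strand setting, annotation and the treatment of reads matching several places are steps not given in the sources used here. Columns were matched to samples by name, and 0 were left unmatched.

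All genes were tested in 1 fit with edgeR 4.0.16 (R 4.3.3, limma 3.58.1): filterByExpr with a minimum count of 10 (21.2 CPM in at least 3 libraries), TMM scaling, the robust quasi-likelihood F test of DKO against WT, and Benjamini-Hochberg adjustment over the 8895 genes kept at a threshold of 0.05. Standard errors were derived from each log2 fold change and the root of its F statistic. For normalized CPM, counts were scaled to the kept library size times its TMM factor; 1 count was worth 1.84 to 5.25 normalized CPM. Sums over genes have no test. Exonic lengths and positions are from GENCODE mouse release 21 (mm10), matched by symbol for 106 of 109 members. Promoter windows are from RefSeq (GRCm38.p6), matched by symbol for 83 members. Python 3.11.15 with scipy 1.17.1 was used.

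In each of 8 gene groups the members named are up to 3 with the smallest p, with fold changes, and the 3 with the highest level per length, and from the other pathway genes the 4 with the smallest p; members without overlap, with 0 counts and tissue-restricted isoforms are also named, with others chosen after their values were seen. Values of 1 member are not reported here, although it stays in the fits, counts and sums. The members and lists were chosen with earlier results of these data known. On simulated counts of 8895 genes with the spread of these data, the test recovered 0 of 67 genes changed by 2 on the log2 scale. It also recovered 0 of 67 changed by 4 and 0 of 66 changed by 6. Of these 66, 41 were kept by the filter. With the coefficient of variation set to 0.2, it recovered 57 of the 66, 60 of 67 changed by 2 and 62 of 67 changed by 4. In that whole simulation there were 12 false calls. Alternatives were other scalings (DESeq2's size factors, library totals), other filters, DESeq2 1.42.0, leaving out mitochondrial-genome genes, the replicate block and leaving out each library; thinning and sums without the top member were added after seeing the data.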

Additional observations from a re-analysis of the deposited data

How the results depend on the processing

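The number of genes called depended on the method: edgeR called 0, edgeR without a filter on low counts 130 and DESeq2 601, of which 2 and 1 were respiratory chain genes. With library totals alone the medians of tested members were 1.47 for all members, 0.67 for complex I, 3.79 for complex II, 2.04 for complex V, 1.40 for subunits and 1.74 for assembly factors. Without a filter they were 0.97 for all members, 0.66 for complex I, 0.32 for complex V, 0.97 for subunits and 0.037 for assembly factors. With a mean CPM of at least 10 they were 0.27 for all members, 0.16 for complex V, 0.20 for subunits and 0.27 for assembly factors. The median over all genes tested moved as well, from -0.17 in the main fit to 0.62 with library totals alone. It was 0.29 without a filter and -0.089 with a mean CPM of at least 10. Leaving out the mitochondrial-genome genes gave 1.96 for complex II, over 2 tested genes in place of 3, since Sdhc was no longer tested. The values of Sdhaf2 (3.22) and Sdha (0.70) hardly moved. Directions reversed with library totals for Ndufv1 (0.44), Ndufaf1 (0.43), Atp5sl (0.64) and Cox5a (0.12), and without a filter for Ndufaf1 (0.031) and Atp5sl (0.043); the cause was not tested.

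Whether shared replicate numbers pair the libraries was not settled. Same-numbered libraries correlated at 0.0227, 0.0265 and 0.0368, and the others at -0.0238 to -0.00377, so each correlated best with its own number. Values this close to 0, from 3 libraries per group, cannot decide it. With the replicate block 0 genes were called, and the median over all genes tested was 0.27, against -0.17 in the main fit. Medians with the block were 1.38 for all members, 0.77 for complex I, 1.86 for complex IV, 1.28 for subunits and 1.83 for assembly factors, and Atp5sl (0.75) and Cox5a (1.29) reversed.

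Leaving out 1 library at a time called 0 genes. The median ranged from 0.10 (without DKO library 3) to 0.99 for all members, from -0.067 to 1.53 for complex I, from 2.30 to 3.47 for complex II, from -0.40 to 4.52 for complex III, from 0.25 to 1.64 for complex IV, from 0.24 to 1.17 for complex V, from -0.10 to 0.89 for subunits and from 0.69 to 1.19 for assembly factors. Over all genes tested the median ranged from -0.22 (without DKO library 2) to 0.091 (without WT library 2). Members whose groups did not overlap numbered 19 to 27 with DKO libraries higher and 4 to 8 lower. The shares of all symbols also went up, to 12.4% to 14.8% higher and 4.46% to 7.78% lower. Single genes ranged from -0.82 to 0.59 (Ndufv1), -2.67 to 1.53 (Ndufa10), -0.86 to 0.69 (Ndufaf1), -2.09 to 4.13 (Atp5sl), -0.10 to 3.57 (Sdha), -0.59 to 0.81 (Uqcrc1), -1.17 to 6.02 (Cox5a) and -0.17 to 6.84 (Cox19). Of 17 genes named with fold changes, 9 kept their direction in every setting run. The genes tested also changed between settings, which moves the medians. Complex III had 1 tested gene in the main fit and 2 without DKO library 2 (median 4.52). Complex II had 3 and, without DKO library 2, only 2 (median 2.30), Sdhc no longer being tested. Counts were low, with 37 of the 109 members under 10 in total, and libraries of a group differed widely. How much each of these adds to the ranges was not tested.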
